A study of Mus musculus with 3 samples.

Results

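Hoxa3, Hoxa5, Hoxa7, Hoxa9, Hoxa10, Meis1 and Pbx3 are 7 homeobox genes that were looked up by symbol among the 32285 genes of the count matrices, and all 7 were found in each of the 3 libraries. Their UMI counts (a UMI tags 1 captured transcript molecule) were followed from stem cells to basophils in mouse bone marrow cells measured by single-cell sequencing of transcript 3' ends in droplets. There were 2 libraries labelled Ep300-Znf384-V5-HA, a genotype joining the acetyltransferase gene Ep300 to the zinc finger gene Znf384 with V5 and HA tags and called fusion below, and 1 library labelled wild type. All 3 libraries came from males aged 6 weeks, and red cells had been lysed before sorting. Each library mixed 5000 sorted live marrow cells with 5000 sorted lineage-negative cells, so the share of a cell class in a library is set in part by that mixture. The labels do not say which cells carry the fusion, how the allele is driven, or whether a library is 1 animal.

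Hox proteins are homeodomain transcription factors whose genes lie in clusters, and those of the Hoxa cluster are known for their activity in blood stem and progenitor cells, where they are switched off as cells mature. Meis1 and Pbx3 belong to the TALE class of homeodomain proteins, which bind DNA together with Hox proteins and sharpen their choice of site. High HOXA9 with MEIS1 and PBX3 is a known feature of several human acute leukaemias, KMT2A-rearranged leukaemia among them.

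Of the members, 5 are shown first by a part of the coding sequence that the Hoxa genes and their TALE partners both have. It holds 30 bases of each homeodomain's recognition helix, which reads the DNA, and the capitals mark the same 6 codons of that helix in each of them. The stretches were cut from GENCODE release M21 transcripts of the build GRCm38.
Hoxa5: aaaatcTGGTTCCAAAACAGGAGGatgaag
Hoxa7: aagatcTGGTTCCAGAATCGGCGCatgaag
Hoxa10: aaaatcTGGTTTCAGAATCGCAGGatgaaa
Meis1: aacaatTGGTTTATTAATGCCCGGagaaga
Pbx3: tccaacTGGTTTGGCAACAAACGAatcagg
Any pair of Hoxa5, Hoxa7 and Hoxa10 shared 24 of these 30 bases. Hoxa pairs with Hoxa3 or Hoxa9, which are not printed, shared 24 to 28. Meis1 matched these Hoxa genes at 14 to 18 bases and Pbx3 at 14 to 16 bases, and Meis1 and Pbx3 matched each other at 16 bases. In GRCm38 the 5 Hoxa members lie on the minus strand of chromosome 6, Meis1 on the minus strand of chromosome 11 and Pbx3 on the minus strand of chromosome 2. Exons of Hoxa7 overlapped those of the antisense gene Hoxaas3 on the opposite strand over 20.38% of their bases, and exons of Hoxa3 overlapped antisense exons over 20.57%. Whether counting used strand in such overlaps was not stated in any source used.

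Promoter windows of 300 bases, from 250 before to 50 after a RefSeq start in GRCm38.p6, were read for Meis1 and the 5 Hoxa members. Meis1 and Hoxa9 are printed because they lay on opposite sides of wild type in the progenitors. Capitals mark matches on either strand to TGACAG, a core bound by Meis proteins, to TGATNNAT, a Pbx-Hox composite core, or to AAAAAA, the A-rich core bound by Znf384.
Meis1, chr11:19018920-19019219, minus strand: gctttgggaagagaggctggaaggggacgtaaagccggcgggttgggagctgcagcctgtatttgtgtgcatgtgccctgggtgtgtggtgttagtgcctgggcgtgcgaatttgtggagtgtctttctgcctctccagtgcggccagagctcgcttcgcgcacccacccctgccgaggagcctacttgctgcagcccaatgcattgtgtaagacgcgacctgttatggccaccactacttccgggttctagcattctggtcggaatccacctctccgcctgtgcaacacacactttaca
Hoxa9, chr6:52227321-52227620, minus strand: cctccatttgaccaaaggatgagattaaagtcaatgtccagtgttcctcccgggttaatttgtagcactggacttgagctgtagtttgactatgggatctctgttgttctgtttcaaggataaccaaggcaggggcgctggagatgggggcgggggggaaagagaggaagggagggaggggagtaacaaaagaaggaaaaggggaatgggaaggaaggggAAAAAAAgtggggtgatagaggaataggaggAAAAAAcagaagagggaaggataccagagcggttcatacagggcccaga
The Meis1 window held no match to any of the 3 cores. The Hoxa9 window held 3 matches to the A-run, which lie in 2 runs, and none to the other cores. Among all 32851 windows of that table, 19.2% held TGACAG, 8.85% held TGATNNAT and 19.2% held AAAAAA. Only the Hoxa3 window among the other members held a match, 1 to TGACAG. A match or its absence in these windows is a description of letters and was not tied to binding.

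The files held 9057, 8122 and 9354 barcodes in fusion library 1, fusion library 2 and the wild-type library, with 93262028 to 111836603 UMIs per library. After filters on depth and mitochondrial reads and removal of predicted doublets, 7307, 6894 and 7434 cells were kept. Any 2 libraries shared 19 to 23 barcodes. Cells were clustered with the 53 Hox, Meis, Pbx and Pknox genes and their antisense partners kept out of the variable genes, so the members' levels did not shape the clusters. The 26 clusters gave 13 classes named by markers, where each name means cells like that type, and 2 clusters that stayed unnamed and are called by their leading genes, Ctla2a F2r and Irf8 Runx2. Meis1 is itself among the 10 leading genes of the Ctla2a F2r cluster, although it was not used to form it. The earliest class joins stem, multipotent and lymphoid progenitors, since its leading genes held Hlf as well as Dntt and Flt3. The libraries stood apart in mature neutrophils, where cluster 0 held 1202 and 921 fusion cells against 1 wild-type cell and cluster 7 held 6 and 8 fusion cells against 1087 wild-type cells. With 1 wild-type library and 1 residual degree of freedom, p-values rest on the spread between the 2 fusion libraries, which may be technical. Ep300 had 69.2 and 52.9 CPM (UMIs scaled to a common library size) in fusion cells against 85.8 CPM in wild-type cells, and Zfp384, the mouse Znf384 gene, had 26.5 and 19.5 CPM against 15.5 CPM. The files count no fusion transcript of its own, so these levels do not check the fusion directly.

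Across the classes, the Hoxa members were high in progenitors and near 0 in neutrophils. Hoxa9 averaged 75.4 CPM over the 3 libraries in the stem, multipotent and lymphoid progenitors, with libraries between 63.7 and 91.7 CPM, and its next class, the Ctla2a F2r cluster, averaged 32.7 CPM with no overlap between them. The Irf8 Runx2 cluster at 25.4 CPM and granulocyte-monocyte progenitors at 24.5 CPM overlapped in range. Erythroid progenitors averaged 14.1 CPM of Hoxa9, erythroblasts 3.28 CPM and mature neutrophils 0.633 CPM. Hoxa9 thus stood highest in the earliest cells and was lowest in mature neutrophils, and 4 of the 14 neighbouring steps of its order did not overlap in the libraries' ranges.

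The other Hoxa members had their own orders. Hoxa7, a mid-cluster gene, averaged 64.1 CPM in plasmacytoid dendritic cells and 55.0 CPM in the progenitors, whose ranges overlapped, followed by 38.8 CPM in the Irf8 Runx2 cluster. The plasmacytoid value rests on 10 and 15 UMIs in the fusion libraries and 42 in the wild-type library. Hoxa5 was highest in the progenitors at 15.5 CPM, and Hoxa3 averaged 8.85 CPM there against 8.31 CPM in plasmacytoid dendritic cells, with overlap. Hoxa10 had few UMIs, 37 and 48 in the fusion libraries and 74 in wild type over all cells, and averaged 4.42 CPM in progenitors and 2.65 CPM in megakaryocytes. It had no UMI in any library in 5 of the 15 classes.

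Meis1 and Pbx3 peaked in another lineage. Meis1, a cofactor needed for stem cell maintenance and the megakaryocyte lineage, averaged 268.9 CPM in megakaryocytes, 176.9 CPM in the Ctla2a F2r cluster and 154.9 CPM in the progenitors, and then 49.1 CPM in basophils. The megakaryocyte range lay clear of the next class, while the Ctla2a F2r and progenitor ranges overlapped. Pbx3 averaged 28.3 CPM in megakaryocytes, 25.0 CPM in erythroblasts and 19.9 CPM in monocytes and dendritic cells, with 10.4 CPM in the progenitors. All of these Pbx3 neighbours overlapped. Pbx3 was thus the one member whose level in erythroblasts was above that in the progenitors in all 3 libraries.

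**Figure D1:**
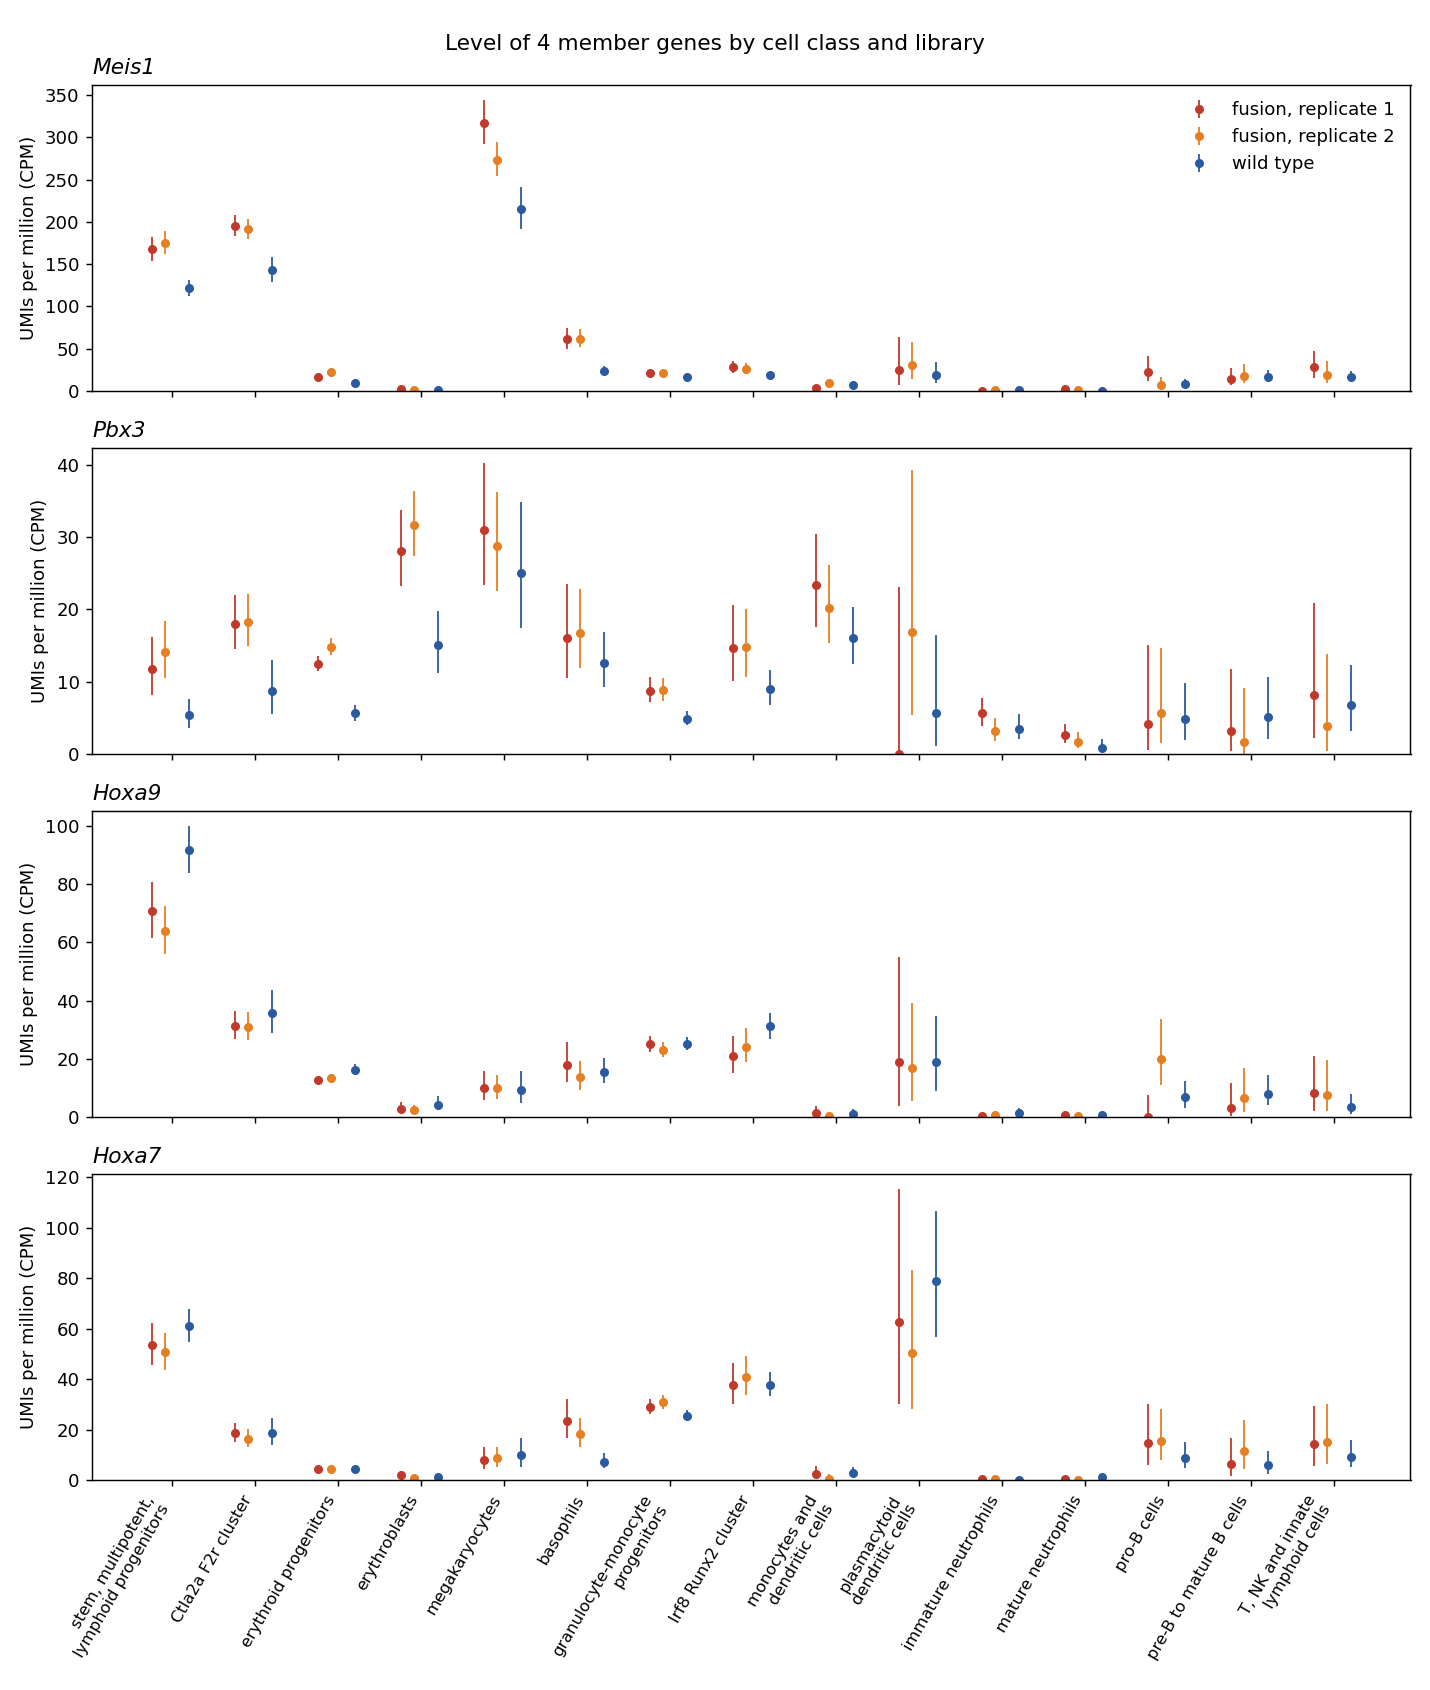
Level of Meis1, Pbx3, Hoxa9 and Hoxa7 in CPM (y axis) in 15 cell classes (x axis), 1 point per library with the fusion libraries left of wild type and bars for exact Poisson 95% intervals, which cover counting error only. Meis1 and Pbx3 points of both fusion libraries lie above wild type in 11 and 10 of the 15 classes, and Hoxa9 points lie below it in 9. Among 10932 genes with at least 10 CPM in their highest class, 4.66%, 8.03% and 15.3% did so in as many classes or more.

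Pbx3 was higher in fusion cells in the progenitors and in the red cell series. In the stem, multipotent and lymphoid progenitors it had 11.7 and 14.1 CPM in the fusion libraries against 5.36 CPM in wild type, from 36, 53 and 30 UMIs. Both fusion libraries were above wild type, and the log2 fold change was 1.27 ± 0.34 (SE; edgeR quasi-likelihood, adjusted p = 0.0238). Pbx3 was the 1 member of 7 called there, in a class where 4.26% of the 11162 genes tested were called and 1.4% were called higher. Its adjusted p ran between 0.00511 and 0.9999 over the alternatives, the highest with DESeq2, and missed the threshold in those listed at the end. In this class the 11 lymphoid markers summed to 1562 and 1499 CPM in fusion cells against 3127 CPM in wild-type cells, and the 12 erythroid markers to 602.2 and 579.9 CPM against 286.1 CPM. When finer clusters split stem and multipotent cells (239, 241 and 168 cells) from lymphoid ones (58, 64 and 326 cells), the log2 fold change of Pbx3 in the stem and multipotent cells was 0.77 ± 0.40 (SE; edgeR adjusted p = 0.870), and it was not tested in the lymphoid cells.

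In erythroid progenitors, which are committed to making red cells, Pbx3 had 12.5 and 14.8 CPM in the fusion libraries against 5.65 CPM in the wild-type library, from 580, 650 and 109 UMIs. Pbx3 rose by a log2 fold change of 1.27 ± 0.18 (SE; edgeR adjusted p = 0.0313), as 1 of 7 members called where 0.513% of 12858 genes were called. In this class the 12 granulocyte-monocyte markers summed to 52.2 and 56.6 CPM in fusion against 93.7 CPM in wild type, the 11 basophil markers to 171.7 and 193.5 CPM against 265.5 CPM, and the 12 erythroid markers to 6797 and 6199 CPM against 6610 CPM, and their part in the result was not tested. DESeq2 called Pbx3 there too (adjusted p = 0.0162), and over the alternatives the adjusted p ran between 0.00405 and 0.0679. In erythroblasts, the later red cell stage, it had 28.1 and 31.7 CPM in fusion against 15.1 CPM in wild type, with a log2 fold change of 0.99 ± 0.22 that missed the threshold (edgeR adjusted p = 0.123). The Ctla2a F2r cluster had 18.01 and 18.3 CPM against 8.66 CPM (log2 fold change 1.06 ± 0.32, edgeR adjusted p = 0.145, 1.03% of genes called). The fusion libraries thus lay above wild type in each of these 4 classes, 2 of which missed the threshold. Many genes did so in a given class: 3920 of 11162 tested in the progenitors, 4645 of 12858 in erythroid progenitors and 4107 of 10978 in the Ctla2a F2r cluster.

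Pbx3 was called in no other class. Granulocyte-monocyte progenitors had 8.77 and 8.81 CPM in fusion against 4.90 CPM in wild type (log2 difference 0.84 ± 0.21, edgeR adjusted p = 0.423, where 0.0576% of genes were called). Megakaryocytes had 31.0 and 28.8 CPM in fusion against 25.1 CPM in wild type, and basophils 16.04 and 16.7 CPM against 12.6 CPM. Among the 15 classes Pbx3 was below wild type in both fusion libraries only in pre-B to mature B cells, at 3.24 and 1.65 CPM against 5.17 CPM, from 2, 1 and 7 UMIs. The genotype effect on Pbx3 in the progenitors minus that in basophils was 0.93 ± 0.45 on the log2 scale (SE; edgeR interaction term, adjusted p = 0.212), and minus that in erythroid progenitors it was 0.02 ± 0.36 (adjusted p = 1).

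Meis1 had higher levels in both fusion libraries from the progenitors to megakaryocytes and basophils, and passed the test in basophils. In basophils it had 61.7 and 62.0 CPM in the fusion libraries against 23.6 CPM in wild type, from 100, 145 and 86 UMIs. It rose by a log2 fold change of 1.39 ± 0.22 (SE; edgeR adjusted p = 3.41e-08), in a class where 10.2% of 10206 genes were called. A pair of clusters made up the class, and cluster 14, led by the granule genes Mcpt8 and Prss34, held 140 of 197 and 210 of 272 fusion basophils against 266 of 599 wild-type basophils. The 11 basophil markers summed to 27960 and 31710 CPM in fusion basophils against 59550 CPM in wild-type basophils, and the 15 stem and multipotent markers to 3971 and 3707 CPM against 2464 CPM. Within cluster 14 alone Meis1 had 74.8 and 69.1 CPM in fusion against 28.8 CPM in wild type (log2 difference 1.21 ± 0.19, edgeR adjusted p = 0.0966). Over the alternatives for the whole class the adjusted p ran between 1.48e-07 and 0.274, the highest with DESeq2. Median depth was 6555 and 7632 UMIs per cell in fusion basophils against 4657 in wild-type basophils, and the part of depth and of the marker levels in this result was not tested.

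In the progenitors Meis1 had 167.4 and 175.3 CPM in the fusion libraries against 121.9 CPM in wild type (log2 difference 0.49 ± 0.19, edgeR adjusted p = 0.196). Finer clusters gave 239, 241 and 168 stem and multipotent cells and 58, 64 and 326 lymphoid cells. Together these were 297, 305 and 494 cells, where this class held 291, 304 and 500. The effect on Meis1 in the stem and multipotent cells minus that in the lymphoid cells was 0.13 ± 0.21 on the log2 scale and was not called. This difference does not give the effect within either set of cells. The part of the mix of stem and lymphoid cells in the class level was not tested. The Ctla2a F2r cluster had 195.7 and 191.4 CPM against 143.5 CPM (0.43 ± 0.18, adjusted p = 0.402), and megakaryocytes 317.4 and 273.7 CPM against 215.6 CPM (0.45 ± 0.20, adjusted p = 0.522). These differences did not pass the edgeR threshold, although both fusion libraries lay above wild type each time. So did 3920 of 11162 genes tested in the progenitors and 4107 of 10978 in the Ctla2a F2r cluster. Erythroid progenitors had 16.8 and 22.0 CPM in fusion against 9.44 CPM in wild type (log2 difference 1.04 ± 0.19, edgeR adjusted p = 0.0720). Without fusion library 2 that log2 fold change was 0.83. It was 0.57 with classes taken from the wild-type library and 0.67 with a stricter cell filter.

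In single clusters of the red cell series both fusion libraries lay above wild type, and Meis1 and Pbx3 passed the test in cluster 1. In cluster 20, erythroid progenitors led by H1fx, Apoe and Muc13, Meis1 had 128.2 and 122.2 CPM in fusion against 67.3 CPM in wild type (log2 difference 0.85 ± 0.17, edgeR adjusted p = 0.526). Cluster 1 had 13.3 and 15.8 CPM against 5.34 CPM, and there Meis1 rose by a log2 fold change of 1.42 ± 0.25 (edgeR adjusted p = 0.0336). Cluster 2 had 6.74 and 9.50 CPM against 2.45 CPM (1.70 ± 0.34, edgeR adjusted p = 0.0505). Pbx3 rose in cluster 1 as well, with 16.6 and 16.4 CPM in fusion against 5.93 CPM in wild type (1.44 ± 0.21, edgeR adjusted p = 0.0110), where 0.558% of 11639 genes were called. It was not called in cluster 2 (1.18 ± 0.25, edgeR adjusted p = 0.0665) or cluster 20 (0.97 ± 0.37, adjusted p = 0.880). These fits of single clusters were chosen after the values of the classes were seen. In cluster 16, the erythroblasts, Meis1 had 2.03 and 1.57 CPM in fusion against 0.855 CPM in wild type, from 8, 10 and 3 UMIs, so that it was lower there than in cluster 20 in all 3 libraries.

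**Figure D2:**
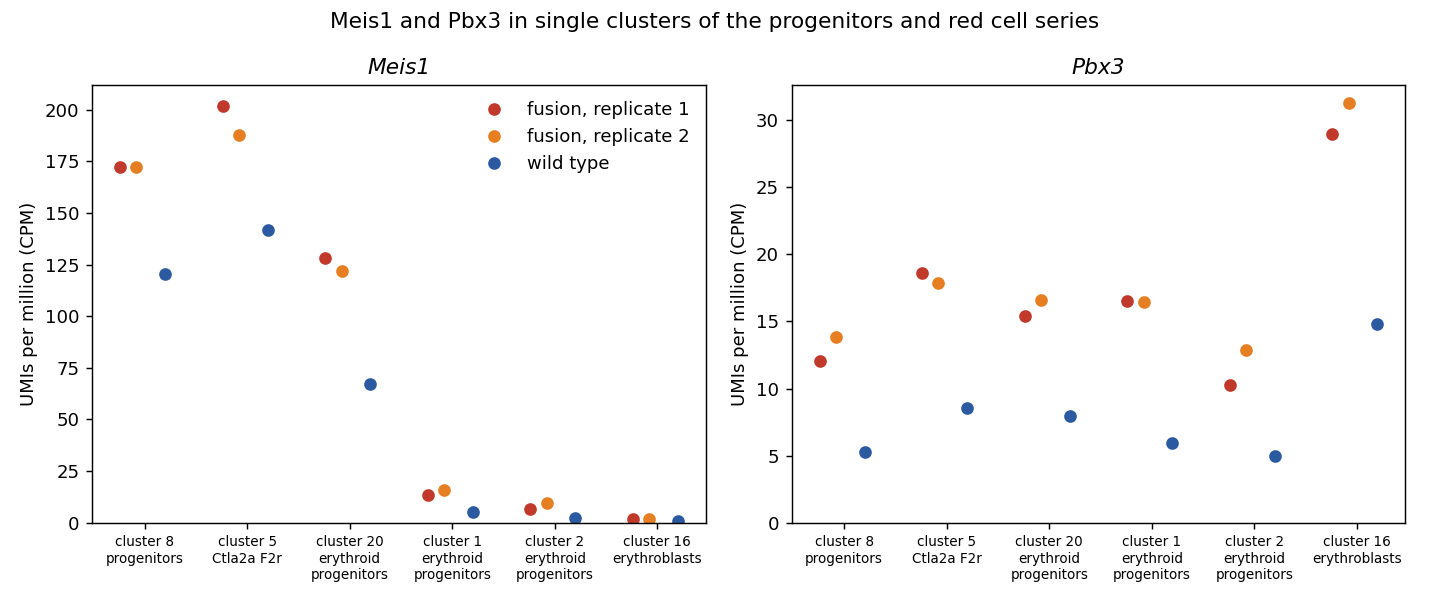
Meis1 (left) and Pbx3 (right) in CPM (y axis) in 6 single clusters from the progenitors (cluster 8) to erythroblasts (cluster 16), 1 point per library with fusion left of wild type. Both fusion libraries lie above wild type in all 6 clusters for both genes, and Meis1 is lower in cluster 16 than in cluster 20 in all 3 libraries.

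Counted over the 15 classes, Meis1 was above wild type in both fusion libraries in 11, below it in both in 1 and overlapping in 3. The 11 include classes with few Meis1 UMIs, such as mature neutrophils with 14, 11 and 2 and erythroblasts with 8, 10 and 3. Among 10932 genes with at least 10 CPM in their highest class, 4.66% were above wild type in as many classes or more. Pbx3 was above in 10 classes, below in 1 and overlapping in 4, and 8.03% of those genes were above in as many or more. All classes of a library come from the same cell suspension, so they are not independent counts.

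Both fusion libraries were below wild type in 9 classes for Hoxa9 and 8 for Hoxa10, counts that 15.3% and 22.5% of the genes compared reached. The other Hoxa members varied. Hoxa9 was above wild type in both fusion libraries in 2 of the 15 classes and below it in both in 9, Hoxa10 in 2 and 8, Hoxa7 in 6 and 7, Hoxa5 in 8 and 4 and Hoxa3 in 6 and 3. Among 10932 genes with at least 10 CPM in their highest class, 15.3% were below in as many classes as Hoxa9 or more. The share was 22.5% for Hoxa10 and 31.6% for Hoxa7, while 20.3% and 38.6% were above in as many as Hoxa5 and Hoxa3. Hoxa3 and Hoxa10 themselves averaged under 10 CPM in every class. The classes below wild type include mature neutrophils, with 5, 2 and 5 UMIs of Hoxa9 and 0, 0 and 1 of Hoxa10. For Hoxa10 they also include pro-B cells and pre-B to mature B cells, each with 0, 0 and 1 UMIs. In the stem, multipotent and lymphoid progenitors Hoxa9 had 70.7 and 63.7 CPM in the fusion libraries against 91.7 CPM in wild type, from 217, 240 and 513 UMIs. Both fusion libraries were below wild type, with a log2 fold change of -0.45 ± 0.17 that missed the threshold (edgeR adjusted p = 0.188). Hoxa5 with 15.3 and 13.8 CPM against 17.3 CPM, Hoxa7 with 53.4 and 50.7 CPM against 60.9 CPM, and Hoxa10 with 3.91 and 2.92 CPM against 6.43 CPM also had both fusion libraries below wild type, and Hoxa3 overlapped at 10.4 and 6.11 CPM against 10.0 CPM. Of all genes tested in this class, 35.3% lay below wild type in both fusion libraries. None of the 5 Hoxa members was called in the progenitors by edgeR or DESeq2, and Hoxa9 alone had an unadjusted edgeR p under 0.05.

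The difference in Hoxa9 varied with which progenitors were taken, and it was called in 1 of 3 other selections. In cells with at least 1 UMI each of Kit and Cd34 and few lineage UMIs, a gate chosen after the data were seen, the progenitor class held 202 of 475 and 212 of 524 of the fusion cells against 280 of 503 of the wild-type cells. In this gate Hoxa9 fell by 0.70 ± 0.13 on the log2 scale (edgeR adjusted p = 0.0346), where 2.75% of 12015 genes were called. Meis1 was higher by 0.72 ± 0.15 there (edgeR adjusted p = 0.0517) and Pbx3 by 0.94 ± 0.27 (adjusted p = 0.141). In the stem and multipotent cells of the finer clusters the log2 fold change of Hoxa9 was -0.56 ± 0.17 (edgeR adjusted p = 0.576), and in the lymphoid ones -0.03 ± 0.25 (adjusted p = 0.9998). The difference between these effects was -0.52 ± 0.25 (interaction term, adjusted p = 0.864).

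Later classes varied. The Ctla2a F2r cluster had Hoxa9 at 31.4 and 31.0 CPM in fusion against 35.8 CPM in wild type, and all 5 Hoxa members lay below wild type in both fusion libraries there, as did 36.9% of all genes tested. Erythroid progenitors had Hoxa9 at 12.8 and 13.3 CPM in fusion against 16.3 CPM in wild type (log2 difference -0.32 ± 0.13, edgeR adjusted p = 0.576). Granulocyte-monocyte progenitors had it at 25.0 and 23.2 CPM against 25.3 CPM. Hoxa7 there had 29.1 and 30.9 CPM in fusion against 25.7 CPM in wild type, the opposite side from the progenitors, with a difference of effects of -0.44 ± 0.15 (edgeR interaction term, adjusted p = 0.0925).

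Hoxa7 was the 1 Hoxa member called in any class. In basophils it had 23.4 and 18.4 CPM in the fusion libraries against 7.40 CPM in wild type, from 38, 43 and 27 UMIs. It rose by a log2 fold change of 1.47 ± 0.36 (SE; edgeR adjusted p = 0.00128), and the adjusted p ran between 0.00102 and 0.99998 over the alternatives, the highest with DESeq2. Nearly all of these UMIs, 37, 42 and 25, came from cluster 14, where the level was 28.8 and 20.4 CPM in fusion against 9.47 CPM in wild type (log2 difference 1.24 ± 0.34, edgeR adjusted p = 0.239). Hoxa9 in the same basophils had 17.9 and 13.7 CPM in fusion against 15.6 CPM in wild type, with overlap. The effect on Meis1 in the progenitors minus that in basophils was -0.86 ± 0.21 on the log2 scale (SE; edgeR interaction term, adjusted p = 0.00166) and the effect on Hoxa7 -1.66 ± 0.33 (adjusted p = 2.19e-05), 2 of 7 members called where 8.92% of genes were. Basophils thus had 2 of 4 tested members called by edgeR, Meis1 and Hoxa7, in a class where 10.2% of 10206 genes were called. DESeq2 called none of the 4, and neither gene was called within cluster 14 alone. Hoxa3, Hoxa5 and Hoxa10 in basophils had at most 8 UMIs in a library and were not tested.

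**Figure D3:**
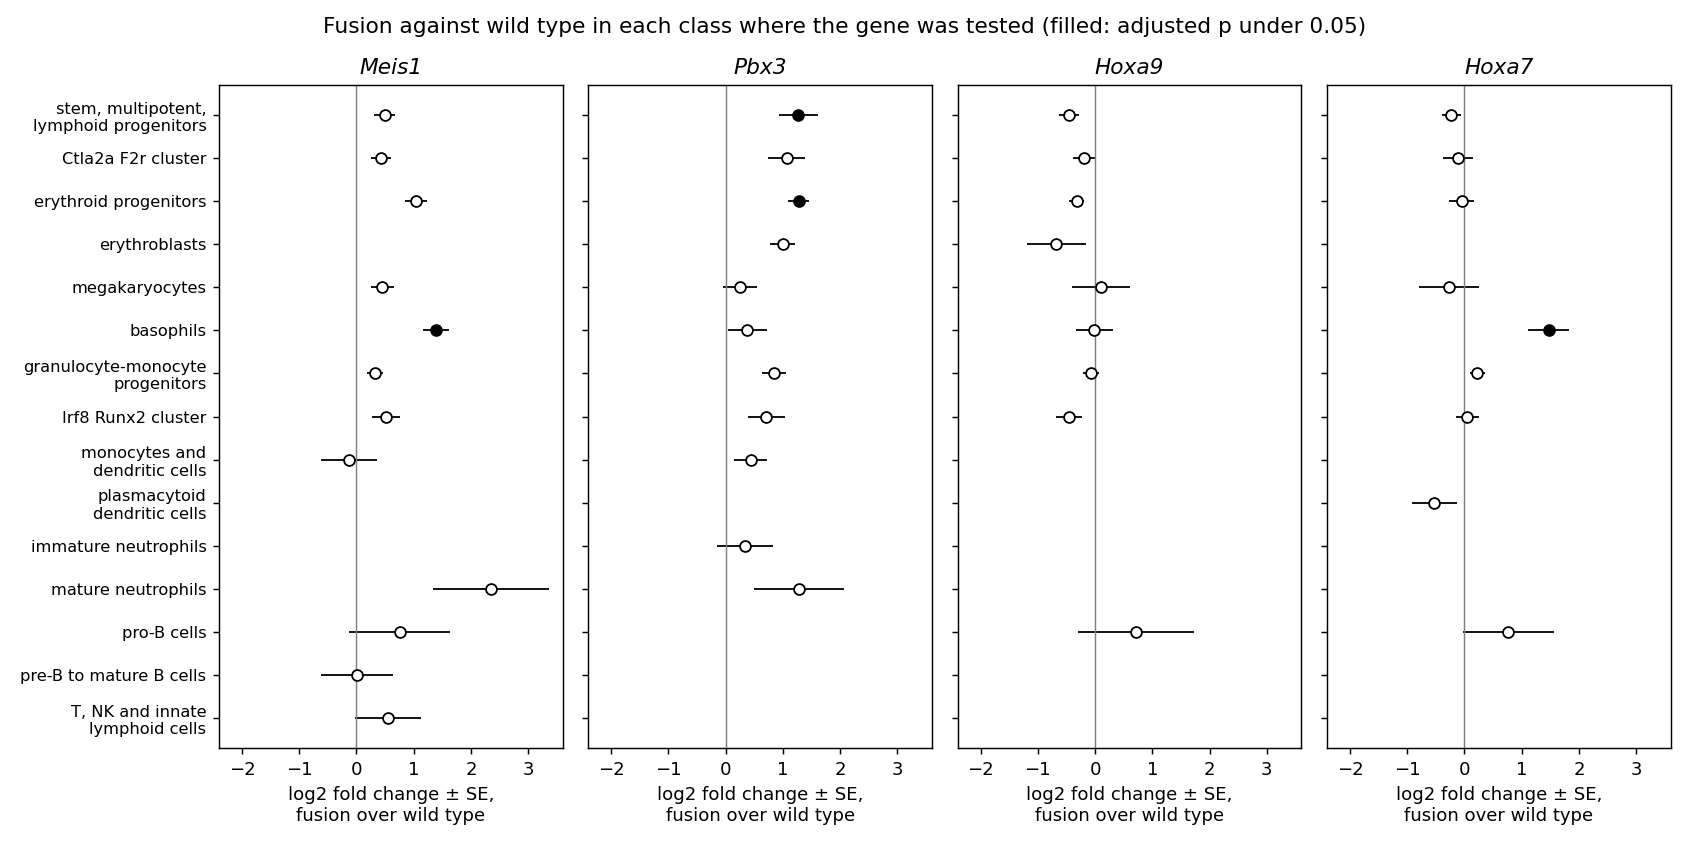
Log2 fold change of fusion over wild type with its standard error (x axis) for Meis1, Pbx3, Hoxa9 and Hoxa7 in each class in which the gene passed the filter on low counts (y axis), filled where edgeR's adjusted p is under 0.05. The 4 filled points are Pbx3 in the progenitors and in erythroid progenitors and Meis1 and Hoxa7 in basophils.

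Summed over all cells of a library, Meis1 had 37.0 and 40.5 CPM in fusion against 25.8 CPM in wild type and rose by a log2 fold change of 0.59 ± 0.14 (SE; edgeR adjusted p = 0.0114). Pbx3 had 12.7 and 13.996 CPM against 6.67 CPM and rose by 1.002 ± 0.158 (adjusted p = 0.000904). Hoxa7 fell by 0.54 ± 0.14 (adjusted p = 0.0212) and Hoxa9 fell by 0.45 ± 0.14 (adjusted p = 0.0430), with 11.04 and 11.6 CPM of Hoxa7 against 16.5 CPM and 15.4 and 15.2 CPM of Hoxa9 against 20.9 CPM. Of all genes, 13.9% were called in this sum. The classes differed in share, with 22.3% and 21.8% of fusion cells against 9.42% of wild-type cells in erythroid progenitors and 3.98% and 4.41% against 6.73% in the progenitors. In such a sum, fewer cells of a type and less RNA per cell cannot be told apart. On plain library totals Hoxa7 had 11.2 and 11.4 CPM in fusion against 16.5 CPM in wild type. With every library set to the mean class shares, Hoxa7 came to 14.1 and 13.2 CPM in fusion against 12.6 CPM in wild type, which is the other side of wild type. On that scale Hoxa9 had 16.8 and 15.6 CPM against 19.0 CPM, Meis1 39.3 and 38.3 CPM against 25.4 CPM, and Pbx3 12.9 and 13.1 CPM against 6.62 CPM.

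The share of cells with a UMI was compared after each cell had been thinned to 2000 UMIs, which left out 0, 0 and 2 progenitors and 81, 34 and 41 erythroid progenitors in fusion library 1, fusion library 2 and wild type. In the progenitors Meis1 was found in 30.2% and 30.6% of fusion cells against 21.5% of wild-type cells, with exact 95% binomial intervals of 25.0% to 35.9%, 25.5% to 36.1% and 17.96% to 25.4%. Unthinned, the shares were 75.3% and 78.0% against 62.8%. The progenitor class held less lymphoid marker RNA in fusion, 1562 and 1499 CPM against 3127 CPM in wild type. The part of this mix of cells in the shares was not tested. In mature neutrophils, which should lack Meis1, thinned shares were 0.270% and 0.336% against 0.0726%, at median depths of 2450 and 3221 against 3027 UMIs per cell, where progenitors had 9300 and 11335 against 10087. Erythroid progenitors held Meis1 in 4.57% and 5.38% of fusion cells against 2.58% of wild-type cells, and unthinned in 26.1% and 32.0% against 15.3%. Both sets of shares lay above the neutrophil level.

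Pbx3 was too sparse for the thinned shares to separate the genotypes in progenitors, with 2.06% and 2.63% of fusion cells against 1.61% of wild-type cells, from 6, 8 and 8 cells. In erythroid progenitors the thinned shares were 2.51% and 3.27% in fusion against 1.37% in wild type, and the unthinned ones 27.5% and 30.8% against 13.1%. Hoxa9 in progenitors was found in 17.5% and 14.1% of thinned fusion cells against 15.3% of thinned wild-type cells, with overlap. Among thinned progenitors, those with a Hoxa9 UMI held a Meis1 UMI in 35.3% and 44.2% of fusion cells against 23.7% of wild-type cells, and those without one in 29.2% and 28.4% against 21.1%. These counts of 18, 19 and 18 cells with both are descriptive.

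**Figure D4:**
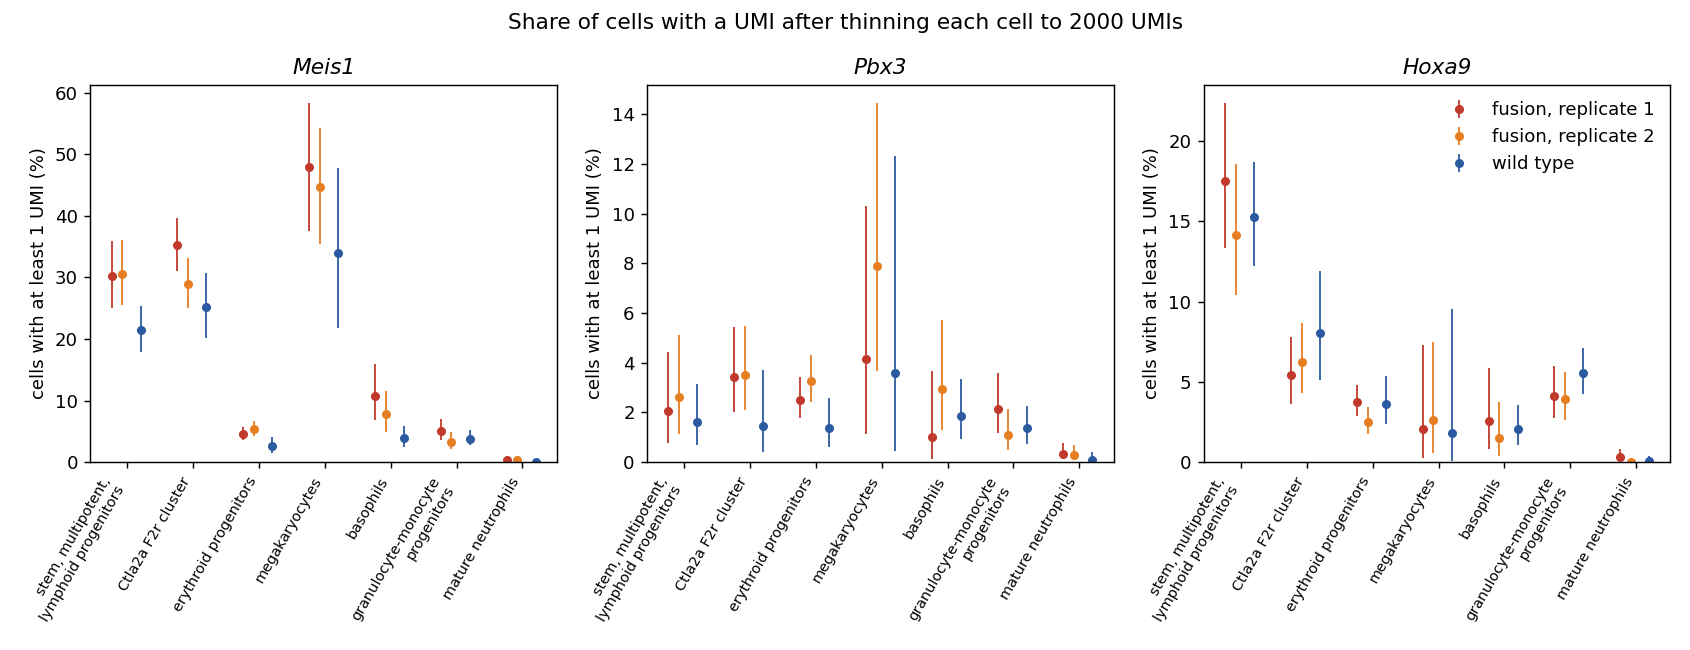
Share of cells with at least 1 UMI of Meis1, Pbx3 and Hoxa9 (y axis, percent) after thinning each cell to 2000 UMIs, in 7 classes (x axis), 1 point per library with fusion left of wild type and exact 95% binomial intervals. Meis1 shares of both fusion libraries lie above wild type in 6 of the 7 classes shown, Hoxa9 shares overlap in progenitors, and all 3 genes are near 0 in mature neutrophils. Those 6 classes include mature neutrophils, where Meis1 was found in 4, 5 and 1 cells of fusion library 1, fusion library 2 and wild type.

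No other Hoxa, Hoxb or TALE gene tested was called in the progenitors, by edgeR or by DESeq2. Only 2 other genes of the Hoxa cluster and 2 Hoxb genes passed the low-count filter there. With so few genes, and 4.26% of all genes called by edgeR in this class, the absence of calls does not set the members apart. Of 11 other genes of the Hoxa cluster, 5 had at least 50 UMIs over the kept cells, and 16 of 18 Hoxc and Hoxd genes had none. Hoxb4, a regulator of stem cell growth, had 14.4 and 12.0 CPM in fusion progenitors against 17.0 CPM in wild-type progenitors (log2 fold change -0.38 ± 0.25, edgeR adjusted p = 0.602). Among 7 tested TALE genes other than the members none was called in progenitors, and 2 had an unadjusted edgeR p under 0.05. Of all 11162 genes tested in this class, 1471 had an unadjusted edgeR p under 0.05.

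Genes that act on Hoxa transcription were called in neither direction in the progenitors. None of 24 tested activators passed in edgeR or DESeq2, 3 had an unadjusted edgeR p under 0.05, and the median log2 fold change was -0.11 against 0.00 over all genes. None of 27 polycomb genes passed in either tool, 3 had an unadjusted edgeR p under 0.05, and the median was -0.14. The share of all genes called in this class was 4.26%. In basophils, where it was 10.2%, edgeR called 1 of 26 polycomb genes and none of 24 activators, no activator had an unadjusted p under 0.05, and DESeq2 called none of either list. Kmt2a, the methyltransferase that maintains Hoxa9, had 226.9 and 187.4 CPM in fusion progenitors against 223.4 CPM in wild-type progenitors, with overlap. Ezh2, the polycomb methyltransferase, had 159.0 and 177.8 CPM against 194.4 CPM (-0.21 ± 0.19, edgeR adjusted p = 0.757).

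A list of genes bound or driven by Hoxa9 and Meis1 in leukaemia cells split in both directions. In the progenitors, where 4.26% of all genes were called, 4 of 27 tested genes rose and 2 fell, with a median log2 fold change of 0.07 against 0.00 over all genes. DESeq2 called 2 of the 27. Those that rose were Itga2b, the platelet integrin CD41 (32.6 and 23.2 CPM in fusion against 5.20 CPM in wild type, log2 difference 2.40 ± 0.29, edgeR adjusted p = 1.29e-06), Dach1 (1.76 ± 0.22, adjusted p = 2.41e-06), the myeloid factor Cebpa (1.25 ± 0.20, adjusted p = 0.000134) and Ikzf2 (0.79 ± 0.20, adjusted p = 0.0159). Those that fell were Flt3, the receptor of early lymphoid progenitors, with 155.7 and 143.8 CPM in fusion against 273.2 CPM in wild type (-0.87 ± 0.19, edgeR adjusted p = 0.00333), and the leukaemia cofactor Mn1 with 9.14 and 7.72 CPM against 32.8 CPM (-1.97 ± 0.24, adjusted p = 1.29e-06). Itga2b is also one of the erythroid and megakaryocyte markers, and Flt3 one of the lymphoid markers. The marker sums given for this class above moved with them, and their part in these changes was not tested. In erythroid progenitors, where 0.513% of all genes were called, edgeR called 1 of 27 tested genes of the list and DESeq2 called 2. The gene called by edgeR was Ikzf2, which fell by 1.07 ± 0.11 on the log2 scale (edgeR adjusted p = 0.00861), the direction opposite to that in the progenitors. In the Ctla2a F2r cluster 2 of 24 were called higher and 1 lower, where 1.03% of all genes were called, and DESeq2 called none of them. In basophils, where 10.2% of all genes were called, 6 of 25 rose and 1 fell and DESeq2 called 2 of the 25. Those that rose included the progenitor factor Sox4 with 535.1 and 526.2 CPM in fusion against 193.9 CPM in wild type (1.45 ± 0.22, adjusted p = 8.74e-09) and the cell cycle kinase Cdk6 (0.63 ± 0.21, adjusted p = 0.0381).

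By the Pearson correlation of log2(mean CPM + 1) over the 15 classes, among 8950 genes reaching 20 CPM in a class, Sirt3, Eya1 and Hoxa7 were most like Hoxa9 (r = 0.906, 0.902 and 0.894). Cul7, Pard3b and Lzts2 were most like Meis1 (r = 0.965, 0.934 and 0.923), and Blvra and C2cd2 were among those most like Pbx3 (r = 0.903 and 0.872). Meis1 correlated with Hoxa9 at 0.788 and with Pbx3 at 0.449, and Pbx3 with Hoxa9 at 0.292. The classes share 3 libraries and differ in depth, so these values describe patterns of level only.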

How the data were processed

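Bone marrow of 2 fusion libraries and 1 wild-type library was profiled with 10x Genomics version 3.1 chemistry, per the labels' protocols. The deposited matrices hold raw UMI counts per gene and barcode, with no normalization; bcl2fastq 2.20.0.422, Cell Ranger 5.0.1 and the build GRCm38 are named in the submitters' processing notes, and Cell Ranger 5.0.0 in the file headers. Each deposited barcode had at least 500 UMIs. Total counts per library set the precision: intervals are exact Poisson or binomial at 95%, and cover counting error only.

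Cells were required to have 1000 UMIs, 400 genes and no more than 10% of UMIs from mitochondrial genes. Doublets predicted by Scrublet (scanpy 1.11.5, expected rate 0.06) were then taken out. Leiden clustering (resolution 1) ran on 15 neighbours in 30 principal components of the 2000 most variable genes. Clusters were named by mean z-scores of marker lists with at least 3 markers in 10% of cells. Counts were summed per library and class and tested in edgeR 4.0.16 (quasi-likelihood, TMM, low-count filter, Benjamini-Hochberg adjustment over all genes of the class). Standard errors were taken from the F statistic. CPM uses the TMM-scaled library size, except in single clusters, marker sums, Ep300 and Zfp384, which use plain totals. The test was checked on simulated data.

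The rule for names took the 7 members, list genes called in the progenitors, the 3 most abundant there of a list with fewer than 8 calls, and the 3 genes most like Hoxa9, Meis1 and Pbx3; those printed are a selection. The members and lists were chosen with earlier results of these data known. Some items are not reported here.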

Additional observations from a re-analysis of the deposited data

Results flagged for a closer look

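The effect of the fusion on Meis1 differed between the progenitors and basophils. The log2 effect in the stem, multipotent and lymphoid progenitors minus that in basophils was -0.86 ± 0.21 (SE; edgeR interaction term, adjusted p = 0.00166), with both fusion libraries above wild type in both classes. With basophil cluster 14 alone in place of the class it was -0.69 ± 0.22 (adjusted p = 0.0307). Against the other classes compared the difference was not called: 0.18 for granulocyte-monocyte progenitors (adjusted p = 0.639), -0.52 for erythroid progenitors (0.0577), 0.06 for megakaryocytes (0.941) and 0.07 for the Ctla2a F2r cluster (0.936).

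For Hoxa7 the same difference was -1.66 ± 0.33 (SE; edgeR interaction term, adjusted p = 2.19e-05), with both fusion libraries below wild type in the progenitors and above it in basophils. With cluster 14 alone it was -1.44 ± 0.34 (adjusted p = 0.000846). In this contrast 8.92% of the 11519 genes tested were called. The make-up of both classes, given by their marker sums and cluster shares in the text, moved with the genotype, and its part in these differences was not tested.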

How the results depend on the processing

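All 4 calls of members in classes were higher in fusion. Of these, 2 were in basophils, where 10.2% of all genes were called. The others were 1 in the progenitors, where 4.26% were called, and 1 in erythroid progenitors, where 0.513% were called. The count of 4 was 1 with DESeq2 and 2 with classes taken from the wild-type library, and stayed within 1.5 times under the other planned settings. In the progenitors the 1 call was 0 with DESeq2, with Hox, Meis, Pbx and Pknox genes allowed among the variable genes, with the stricter cell filter, with predicted doublets kept, with classes from the wild-type library and with equal cells per library, and 2 at Leiden resolution 0.5. Over all cells the 4 calls became 2 with DESeq2, those of Meis1 and Pbx3. No result tested here changed direction, although Hoxa7 over all cells changed side with class shares equalised, a setting added after the data were seen, as were the fits of single clusters, the wider gate and further class pairs.

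The mean share of thinned cells with Meis1 in fusion minus that in wild type, 8.93 percentage points in progenitors, was 13.8 unthinned and 9.62 thinned to 4000 UMIs, and 8.75 to 9.11 without either fusion library. For Pbx3 in progenitors it was 0.740, then 8.06 and 3.71, and 0.456 to 1.03. In erythroid progenitors Meis1 gave 2.40, then 13.8 and 3.55, and 1.995 to 2.80, and Pbx3 gave 1.52, then 16.01 and 3.75, and 1.15 to 1.90. Thinning itself lowers these differences; the cause of the rest was not tested.

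Meis1 in erythroid progenitors passed at Leiden resolution 0.5 (adjusted p = 0.0455), at resolution 2 (0.0161) and with equal cells (0.0290). Pbx3 there lost its call without the gene filter (0.0679). No paired analysis was possible because the replicate numbers only follow the order of the samples and there is 1 wild-type library. A planned gate on Kit, Cd34 and at most 2 lineage UMIs held 16, 25 and 9 cells and was not fitted.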
